A study of Homo sapiens with 9 samples.

Results

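The genes described here encode the subunits of the mitochondrial oxidative phosphorylation complexes that are made from nuclear DNA. They were taken by symbol from the protein-coding genes of the count files: names that start with NDUFA, NDUFB, NDUFC, NDUFS or NDUFV for complex I, SDHA to SDHD for complex II, names that start with UQCR and CYC1 for complex III, names that start with COX4 to COX8 for complex IV, and names that start with ATP5 for complex V. Genes named NDUFAF and pseudogenes were left out. The rule found 91 of 58219 gene rows: 40 for complex I, 4 for complex II, 10 for complex III, 17 for complex IV and 20 for complex V. Of these, 82 passed the filter on low counts and were tested among 14617 genes. A gene counts as called where its edgeR quasi-likelihood p, adjusted by Benjamini-Hochberg over all 14617 genes, was under 0.05.

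RNA was sequenced from PLC/PRF/5, a human hepatoma line that stably expressed the Src family tyrosine kinase YES either as Yes WT (4 samples, WT below) or with the T348I change at the gatekeeper residue of the kinase pocket (5 samples). Every sample had received 100 nM dasatinib, which blocks ABL and the Src family kinases, so each comparison of T348I with WT is made in the presence of the drug; untreated samples were not analysed here. The labels give neither the number of clones behind each stable line nor the promoter that drives YES. The drug's name is spelled in 2 ways in the titles, with no label to say what that marks: the dasatinib set holds 3 WT and 3 T348I samples, and the Dasa set holds 1 WT and 2 T348I samples. Each comparison below is therefore given with the set as a term of the model, and by set for the subunit genes on which the results turn.

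The libraries held 10381142 to 15799059 reads in genes. YES1 stood at 341 to 362 CPM (reads of a gene scaled to a common depth with TMM) in WT dasatinib samples. The WT Dasa sample had 368 CPM. In T348I samples YES1 stood at 553 to 605 CPM in the dasatinib set and at 974 and 1032 CPM in the Dasa set. The 2 sets stood apart. Transcripts of genes named MT- took 7.38% to 9.44% of gene reads in the dasatinib set and 15.25% to 17.01% in the Dasa set, reads in no annotated feature took 4.99% to 5.80% and 9.10% to 9.78% of all reads, and reads that map to several places took 10.9% to 16.9% and 7.14% to 7.99%. Of 8 liver markers, 5 (AFP, APOB, TF, SERPINA1 and HNF4A) were above 10 CPM in every sample, whereas ALB, APOA1 and TTR, also defining markers of liver cells, were below 10 CPM throughout. Summed markers of fibroblasts (3.56 to 10.2 CPM), endothelium (1.37 to 3.94 CPM) and blood (0 to 0.409 CPM) were low in both groups.

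Oxidative phosphorylation passes electrons from NADH, at complex I, and from succinate, at complex II, through coenzyme Q to complex III, and on through cytochrome c to complex IV, where oxygen is reduced. Complexes I, III and IV pump protons across the inner mitochondrial membrane, and complex V, the ATP synthase, uses the return flow to make ATP. The mitochondrial genome encodes a small set of core subunits of complexes I, III, IV and V, while all of complex II and every other subunit come from nuclear genes. Nuclear subunit genes are known targets of the factors NRF1, GABPA, an ETS factor, and YY1, and liver cells are rich in mitochondria.

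The subunit transcripts differed widely in level. Per kilobase of merged exons, the mean level over the 9 samples ran from 0.248 (COX6B2) to 366 CPM per kilobase (ATP5F1B, the catalytic beta subunit of ATP synthase), with a median of 30.7 over the 82 tested genes. ATP5F1B was followed on this scale by ATP5MK, a small membrane subunit of ATP synthase, at 189 CPM per kilobase, COX6B1 at 185 and NDUFS5 at 177. With the length of the principal transcript in place of merged exons, an alternative chosen after seeing the data, ATP5F1B stayed highest at 462 CPM per kilobase and ATP5MC3, a c-ring subunit, moved from 34.2 to 275. The order below ATP5F1B therefore depends on the length used. The coefficient of variation of CPM over all 9 samples ranged from 4.20% (NDUFA10) to 53.7% (NDUFA13), with a median of 10.4%.

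The 9 genes that did not pass the filter include most of the tissue-restricted paralogues. COX4I2 (a hypoxia and lung isoform), COX6A2 (a heart and muscle isoform) and the readthrough NDUFC2-KCTD14 had 0 reads in all 9 samples, which allows up to 0.192 to 0.288 CPM per sample at a floor of 3 reads, for counting error only. COX7A1 (a muscle isoform) had 1 read in all samples together, COX8C had 3, the readthrough ATP5MF-PTCD1 had 4 and ATP5MGL had 14. NDUFA4L2, a hypoxia-induced paralogue of NDUFA4, had 2 to 10 reads per sample and NDUFA7 had 0 to 11. In contrast, the widely used partners were all well covered, with COX4I1 at 147 to 202 CPM, COX6A1 at 34.5 to 51.0, COX7A2 at 155 to 186, COX8A at 42.3 to 59.9 and NDUFA4, known as a subunit of complex IV despite its name, at 136 to 158 CPM. The count for NDUFA7 is uncertain, since 75.9% of its principal transcript lies in exons that another gene of the same strand also has in GENCODE 29, and reads shared by 2 genes are counted for neither.

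In T348I samples, 25 of the 82 tested subunit genes (30.5%) were lower than in WT and 5 (6.1%) were higher, and 52 were not called. Over all genes tested, 21.8% were called lower and 20.7% higher. The changes were small: the called genes that fell had folds from 0.926 (UQCRC1) down to 0.793 (NDUFA5). The median log2 fold of the 82 genes was -0.04 against -0.01 for all genes tested. That distance is smaller than the SD of 0.0463 that the genes' median showed between single samples of one group and set. This SD is not the standard error of a difference between groups, which was not computed. Complex II had the largest share of lower calls, with 3 of 4 genes, followed by complex I with 14 of 37, complex IV with 4 of 13, complex III with 3 of 10 and complex V with 1 of 18. The plot of folds by complex shows this spread. The calls lean on the set term and on the lone WT Dasa sample. With no set term 2 genes were lower (2.44%, against 7.63% of all genes) and 0 higher by edgeR (7 and 3 at an unadjusted p under 0.05). In the dasatinib set alone 15 were lower (18.3%, against 17.1% of all genes) and 6 higher (7.32% against 18.5%). Without WT Dasa replicate 1 there were 14 lower (17.1% against 16.5%) and 6 higher (7.32% against 18.3%), with 13 of the 25 lower calls and 3 of the 5 higher calls kept. In these fits the share of lower calls was near or below that of all genes. Of the 25 genes that were lower, 10 were called in at least 18 of 19 alternatives: NDUFA5, NDUFB11, NDUFS1, NDUFS8, NDUFV3, SDHA, UQCRFS1, COX5A, COX6B1 and ATP5F1A, of which NDUFB11 was named after its values were seen. A bulk level cannot tell fewer cells with a transcript from less transcript per cell.

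**Figure D1:**
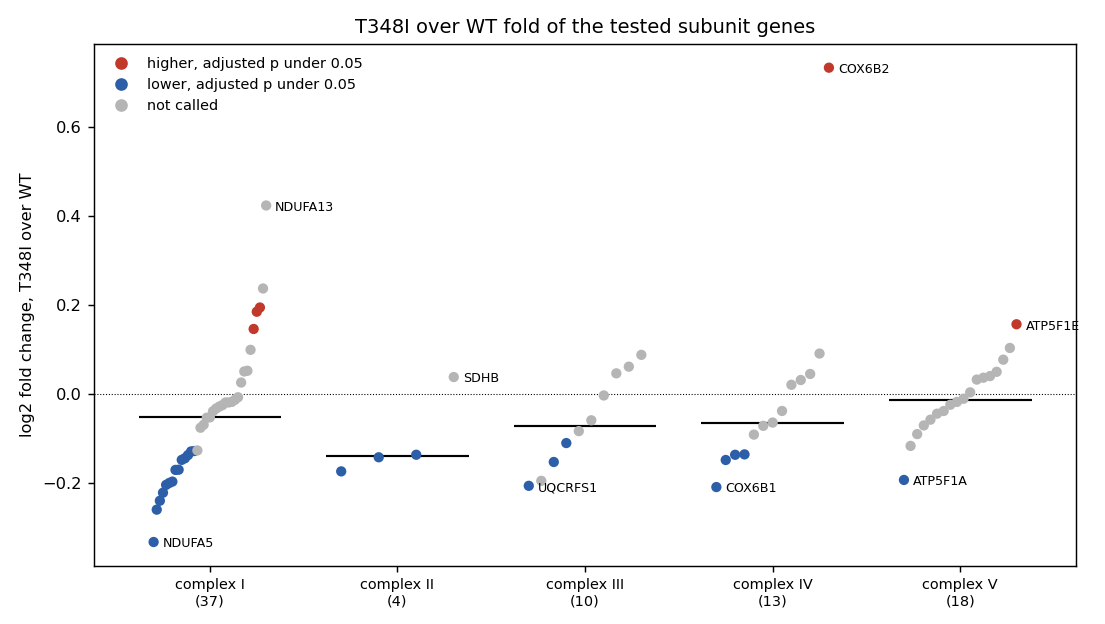
Log2 fold change of T348I over WT (vertical axis) for each of the 82 tested genes, grouped by complex with the number of genes in brackets; red and blue points were called higher or lower (edgeR adjusted p under 0.05), grey points were not, and black lines are medians. Most blue points lie in complex I (14 of 37), and complex V holds 1 blue and 1 red point of 18.

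Complex I gave the gene with the smallest p of all subunit genes. NDUFA5 (ENSG00000128609.14, minus strand of chromosome 7, 123536997 to 123558255 in GRCh38), an accessory subunit of the peripheral arm, had 84.5, 85.4 and 79.7 CPM in the WT dasatinib samples and 59.7 CPM in the WT Dasa sample, against 66.2, 71.4 and 66.1 CPM and 44.7 and 42.6 CPM in T348I samples. T348I samples were lower in each set without overlap, while the WT Dasa sample lay below the T348I dasatinib samples. In the Dasa set, here and for the genes below, a lack of overlap rests on 1 WT sample. How many of all genes separate in this way was not counted. NDUFA5 had a log2 fold of -0.33 (standard error 0.0456, edgeR adjusted p = 7.8e-06). NDUFS8 (ENSG00000110717.12, plus strand of chromosome 11, 68030617 to 68036644), a core subunit that carries iron-sulfur clusters, had 69.9, 73.9, 77.7 and 75.4 CPM in WT and 62.1, 68.1, 63.0, 63.4 and 60.2 CPM in T348I samples. All 5 T348I samples lay below all 4 WT samples whatever the set, and the log2 fold was -0.22 (standard error 0.0457, edgeR adjusted p = 0.000589). NDUFS8 and NDUFV3, a small accessory subunit of the NADH-binding module, were the genes called lower in all 19 alternatives. NDUFV3 had 73.0, 75.0, 82.6 and 72.3 CPM in WT and 68.1, 67.8, 68.2, 62.5 and 59.8 CPM in T348I samples, with no overlap, and a log2 fold of -0.20 (standard error 0.0438, edgeR adjusted p = 0.00116).

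Of the 7 nuclear core subunits of complex I, which hold the flavin and the iron-sulfur clusters, 4 were lower in T348I samples. Beside NDUFS8 they were NDUFS1, the largest subunit, with a log2 fold of -0.15 (edgeR adjusted p = 0.00187), NDUFS7 with -0.21 (adjusted p = 0.012) and NDUFV1, which binds NADH, with -0.13 (adjusted p = 0.0069); NDUFS7 was named after its values were seen, and it lost its call with counts that ignore strand (-0.08) and with no set term (-0.23). NDUFS1 had 181, 190 and 186 CPM in the WT dasatinib samples against 166, 166 and 167 in T348I, and 151 CPM in the WT Dasa sample against 140 and 139. The groups overlapped only across sets, where the WT Dasa sample lay below the T348I dasatinib samples. NDUFV1 (-0.11 in the dasatinib set and -0.18 in the Dasa set) was called in 16 of 19 alternatives and lost its call with no set term, in the dasatinib set alone and without WT Dasa replicate 1.

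A few complex I genes went the other way. NDUFS5, NDUFB3 and NDUFAB1, the mitochondrial acyl carrier protein, were higher in T348I samples, named here because they are all 3 of the higher calls in complex I. NDUFS5 (ENSG00000168653.10, plus strand of chromosome 1, 39026318 to 39034636), an accessory subunit, had 90.4, 102, 98.4 and 82.2 CPM in WT (the last in the Dasa set) and 109, 106 and 106 CPM with 91.9 and 90.1 CPM in T348I samples. Within each set T348I samples were higher, with a log2 fold of 0.15 (standard error 0.0402, edgeR adjusted p = 0.00645). NDUFB3 had a log2 fold of 0.18 (edgeR adjusted p = 0.00987), with 0.20 in the dasatinib and 0.17 in the Dasa set. NDUFAB1 had one of 0.19 (edgeR adjusted p = 0.0153), with 0.11 and 0.40. NDUFS5 and NDUFB3 lost their calls only with no set term among the 19 alternatives, and NDUFAB1 was called in 16 of 19, losing its call with no set term, in the dasatinib set alone and without WT Dasa replicate 1.

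Complex II, succinate dehydrogenase, links the citrate cycle to the respiratory chain. SDHA (ENSG00000073578.16, plus strand of chromosome 5, 218241 to 256700), the flavoprotein that oxidises succinate, had 120, 116, 118 and 103 CPM in WT, the last in the Dasa set, and 107, 106, 110, 89.7 and 94.3 CPM in T348I, the last 2 in the Dasa set. T348I samples were lower in each set, by a log2 fold of -0.14 (standard error 0.0363, edgeR adjusted p = 0.00346). Of the membrane anchors, SDHC had a log2 fold of -0.14 (edgeR adjusted p = 0.00632) and SDHD one of -0.17 (adjusted p = 0.00792). SDHD had 85.6, 88.0 and 81.4 CPM in the WT dasatinib samples against 77.2, 78.8 and 82.4 CPM in T348I, which overlap. In the Dasa set its T348I samples, at 53.4 and 51.1 CPM, lay below the only WT sample, at 67.7 CPM. SDHC had folds of -0.10 in the dasatinib set and -0.22 in the Dasa set. SDHC and SDHD each lost the call in the dasatinib set alone, with no set term and without WT Dasa replicate 1. SDHB, the iron-sulfur subunit, had 108, 121, 117 and 93.9 CPM in WT and 115, 118, 118, 97.8 and 100.1 CPM in T348I. Its groups overlapped and its log2 fold of 0.04 was not called (edgeR adjusted p = 0.483).

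In complex III the Rieske iron-sulfur protein and cytochrome c1, the subunits that hand electrons on, were both lower. UQCRFS1, the Rieske protein (ENSG00000169021.5, minus strand of chromosome 19, 29205321 to 29213541), had 137, 140, 127 and 101 CPM in WT and 114, 117, 119, 87.4 and 86.2 CPM in T348I samples, with the Dasa set last in each. T348I samples were lower in each set, with a log2 fold of -0.21 (standard error 0.0383, edgeR adjusted p = 0.000213). CYC1 had a log2 fold of -0.15 (edgeR adjusted p = 0.0214), with -0.16 in the dasatinib and -0.14 in the Dasa set, and was called in 14 of 19 alternatives. UQCRC1, a core protein, had a log2 fold of -0.11 (edgeR adjusted p = 0.0481), with -0.16 and 0.0053 in the sets, and was called in 6 of 19. UQCR11, a small subunit, had a log2 fold of -0.20 at 14.4 to 20.5 CPM and was not called (edgeR adjusted p = 0.0765).

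In complex IV 4 genes were lower and 1 was higher. COX6B1 (ENSG00000126267.8), a subunit on the side where cytochrome c docks, had 179, 208 and 207 CPM in the WT dasatinib samples. The T348I dasatinib samples had 181, 180 and 180 CPM, and the ranges overlapped. In the Dasa set both T348I samples, at 128 and 127 CPM, lay below the only WT sample, at 166 CPM. The log2 fold of COX6B1 was -0.21 (standard error 0.0492, edgeR adjusted p = 0.00187). COX5A fell by 0.15 on the log2 scale (edgeR adjusted p = 0.00402), COX5B fell by 0.14 (adjusted p = 0.0148) and COX7C fell by 0.14 (adjusted p = 0.0181). In the dasatinib and the Dasa set their folds were -0.13 and -0.19 for COX5A, -0.09 and -0.24 for COX5B, and -0.08 and -0.26 for COX7C. COX5B and COX7C were each called in 14 of 19 alternatives. COX4I1, the regulatory subunit, had a log2 fold of -0.09 and was not called (edgeR adjusted p = 0.069). COX6B2, known as a testis isoform, was called higher with a log2 fold of 0.73 (standard error 0.267, edgeR adjusted p = 0.033), at 0.548 to 0.948 CPM in WT and 0.749 to 1.54 CPM in T348I; these are few reads, the ranges overlapped, and it was called in 8 of 19 alternatives. The other paralogues of complex IV, COX6A1 (0.03), COX7A2 (0.02), COX7A2L (-0.07) and COX8A (-0.04), were not called.

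In complex V the catalytic part held both calls. ATP5F1A, the alpha subunit (ENSG00000152234.15, minus strand of chromosome 18, 46080248 to 46104334), had 491, 516 and 503 CPM in the WT dasatinib samples and 371 CPM in the WT Dasa sample, against 437, 442 and 447 CPM and 318 and 324 CPM in T348I samples. It was lower in each set without overlap, with a log2 fold of -0.19 (standard error 0.0341, edgeR adjusted p = 0.000126). Its partner ATP5F1B had 965, 986, 987 and 672 CPM in WT and 871, 882, 927, 661 and 688 CPM in T348I. Its T348I samples were lower in the dasatinib set, while in the Dasa set they lay on both sides of the WT sample, and the log2 fold of -0.09 was not called (edgeR adjusted p = 0.0755). ATP5F1E, the epsilon subunit, was higher by 0.16 (edgeR adjusted p = 0.0205), with 0.23 in the dasatinib and 0.01 in the Dasa set, and was called in 15 of 19 alternatives. The inhibitor ATP5IF1 had a log2 fold of -0.12 (edgeR adjusted p = 0.0798), and the c-ring genes ATP5MC1 (0.08), ATP5MC2 (-0.02) and ATP5MC3 (-0.06) were not called.

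**Figure D2:**
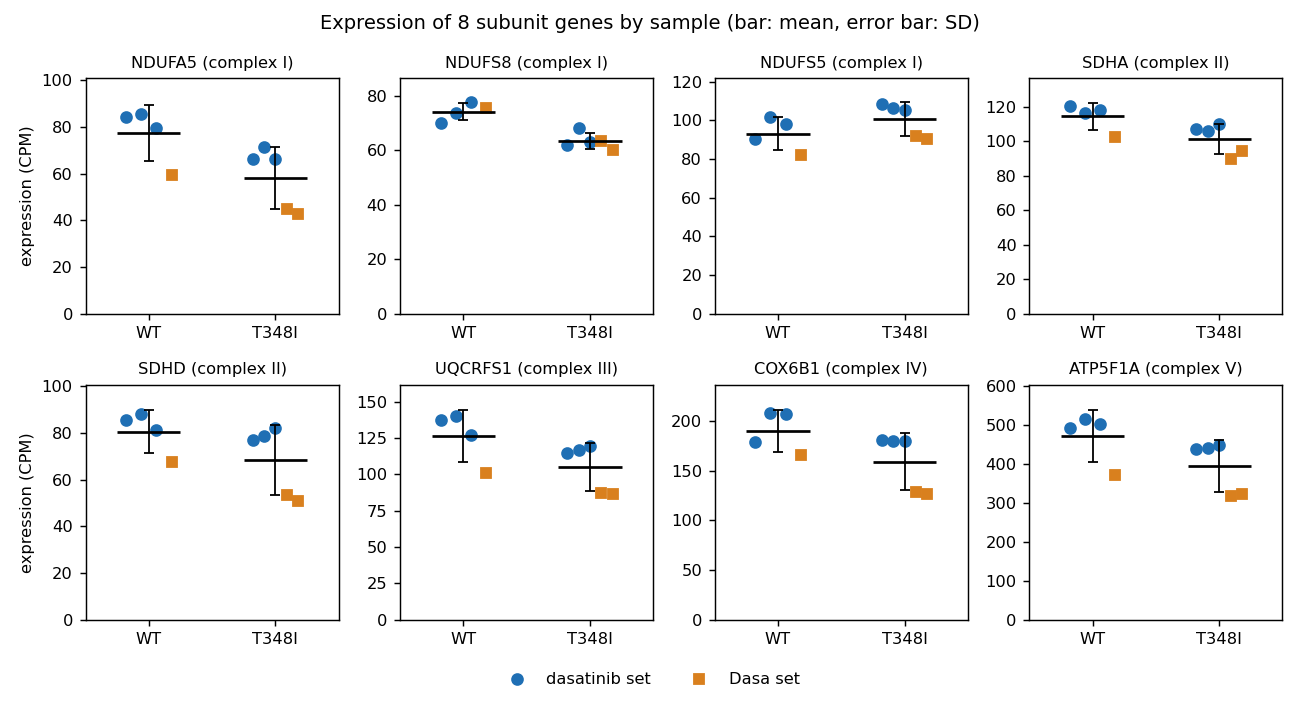
Expression in CPM (vertical axis, from 0) of 8 subunit genes in each WT and T348I sample; circles are the dasatinib set, squares the Dasa set, and bars and error bars are the mean and SD of the group (n = 4 and 5). NDUFS8 separates the groups in all samples, while for NDUFA5 and ATP5F1A the WT Dasa sample (59.7 and 371 CPM) lies below the T348I dasatinib samples.

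Promoter sequences were available for 71 of the 91 genes, from RefSeq on GRCh38.p14, as windows from 250 bases before to 50 bases after a start. Motifs were searched on both strands: GCATGCGC, the core of the NRF1 site; CCGGAAGT, an ETS site; AAGATGGC, a YY1 site; and GGGCGG, an SP1 site. NRF1 letters were in 17.9% of the 84 windows of the subunit genes and in 3.05% of all 35116 windows. The shares were 14.3% and 4.14% for the ETS letters, 15.5% and 2.89% for the YY1 letters, and 61.9% and 45.0% for the SP1 letters. The 35116 windows, of 27305 genes, were not limited to protein-coding or expressed genes. These shares therefore compare unlike sets of genes. Of the 71 genes, 18 held none of the 4. The stretches of 175 bases before the start are given for 4 genes lower both in T348I and in the Dasa set. Matches are in capitals. Of these, 3 have the smallest p of their complex and hold a match, and SDHD was added outside that rule. SDHA and COX6B1, with the smallest p of complexes II and IV, had no match in these stretches. SDHD is among the 3 genes that hold both NRF1 and ETS letters. The printed stretches were thus picked by p and by match, and do not stand for all called genes. NDUFA5 (minus strand, chr7:123557819-123557993, one of its 3 windows; the other 2 hold no match) holds an NRF1 match that begins 158 bases before the start and an SP1 match at 128. SDHD (plus strand, chr11:112086698-112086872) holds overlapping NRF1 matches on the 2 strands, at 110 and 108 bases, and an ETS match at 78. UQCRFS1 (minus strand, chr19:29213152-29213326) holds SP1 matches at 157 and 98 bases. ATP5F1A (minus strand, chr18:46098297-46098471, one of its 2 windows) holds an SP1 match at 84 and an ETS match at 49. This stretch lies inside the gene. The other (chr18:46104228-46104402), not printed, spans the gene's start in GENCODE 29 and holds SP1 matches at 117 and 96 and no ETS match. A match describes letters, not binding, and binding was not measured.
NDUFA5: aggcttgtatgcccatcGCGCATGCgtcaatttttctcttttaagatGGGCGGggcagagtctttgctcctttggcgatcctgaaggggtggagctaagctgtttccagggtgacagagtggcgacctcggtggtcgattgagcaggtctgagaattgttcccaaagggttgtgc
SDHD: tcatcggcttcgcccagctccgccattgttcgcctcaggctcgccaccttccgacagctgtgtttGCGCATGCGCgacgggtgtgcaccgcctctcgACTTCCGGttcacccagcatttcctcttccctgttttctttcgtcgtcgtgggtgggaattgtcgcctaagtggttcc
UQCRFS1: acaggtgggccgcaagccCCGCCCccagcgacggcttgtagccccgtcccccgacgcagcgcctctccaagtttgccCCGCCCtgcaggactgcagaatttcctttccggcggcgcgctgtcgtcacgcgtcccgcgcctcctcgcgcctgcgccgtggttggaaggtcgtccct
ATP5F1A: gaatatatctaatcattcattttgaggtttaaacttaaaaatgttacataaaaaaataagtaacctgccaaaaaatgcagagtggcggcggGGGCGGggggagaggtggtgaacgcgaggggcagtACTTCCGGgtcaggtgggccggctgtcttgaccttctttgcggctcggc

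More subunit genes were called between the sets than between the groups. In the Dasa set 46 of the 82 tested subunit genes (56.1%) were lower than in the dasatinib set and 11 (13.4%) were higher, where 29.0% of all genes tested were called lower and 29.7% higher. The median log2 fold was -0.18 against -0.01 for all genes, and all 4 genes of complex II, 7 of 10 of complex III, 7 of 13 of complex IV, 10 of 18 of complex V and 18 of 37 of complex I were lower. NDUFA5 fell by 0.57 on the log2 scale (standard error 0.0499, edgeR adjusted p = 1.4e-08), the largest fall. SDHD fell by 0.49 (adjusted p = 2.77e-07), ATP5F1B fell by 0.46 (adjusted p = 4.02e-08), ATP5F1A fell by 0.45 (adjusted p = 5.33e-09) and UQCRFS1 fell by 0.42 (adjusted p = 6.05e-08), all by edgeR. UQCRH, the hinge protein of complex III, fell by 0.39 and the gene UQCRHL, a near-identical copy of it, fell by 0.42; reads that match both count for neither, so both values are uncertain. NDUFB4 fell by 0.36 and COX7A2L, known as a factor in the joining of complexes III and IV, fell by 0.38. Of the 25 genes lower in T348I, 20 were also lower in the Dasa set and 1, NDUFV1, was higher there. Of the 5 higher in T348I, 2 were lower in the Dasa set. These counts are to be read beside the 56.1% of all tested subunit genes that were lower in the Dasa set. The same overlap over all genes was not counted, and both comparisons use the lone WT Dasa sample.

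The largest rises between the sets came from genes with few countable reads, named here after their values were seen. NDUFA13 rose by a log2 fold of 1.21 (edgeR adjusted p = 0.000105), NDUFV2, a core subunit, by 1.05 (adjusted p = 2.84e-06), NDUFA11 by 1.02 (adjusted p = 2.35e-06) and NDUFB8 by 0.68 (adjusted p = 1.35e-05). NDUFA13 had 0.731 to 1.41 CPM in the dasatinib samples and 2.20 to 3.20 CPM in the Dasa samples. NDUFV2 had 4.57 to 9.05 and 11.0 to 13.6 CPM. In GENCODE 29 another gene of the same strand shares 44.1% of the principal transcript of NDUFA13, 82.9% of that of NDUFV2, 67.0% of that of NDUFA11 and 71.7% of that of NDUFB8. The 4 tested genes with more than 50% shared (these without NDUFA13, and ATP5PO) were all higher in the Dasa set, with a median of 0.85. Of the other 78, 7 were higher and 46 lower, with a median of -0.19. The cut at 50% was not among the planned rules, and all of the 4 but ATP5PO had just been named for their rise. This split therefore describes these genes and tests no link. The part of shared exons, of multimapped reads and of reads in no feature in these values was not tested.

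**Figure D3:**
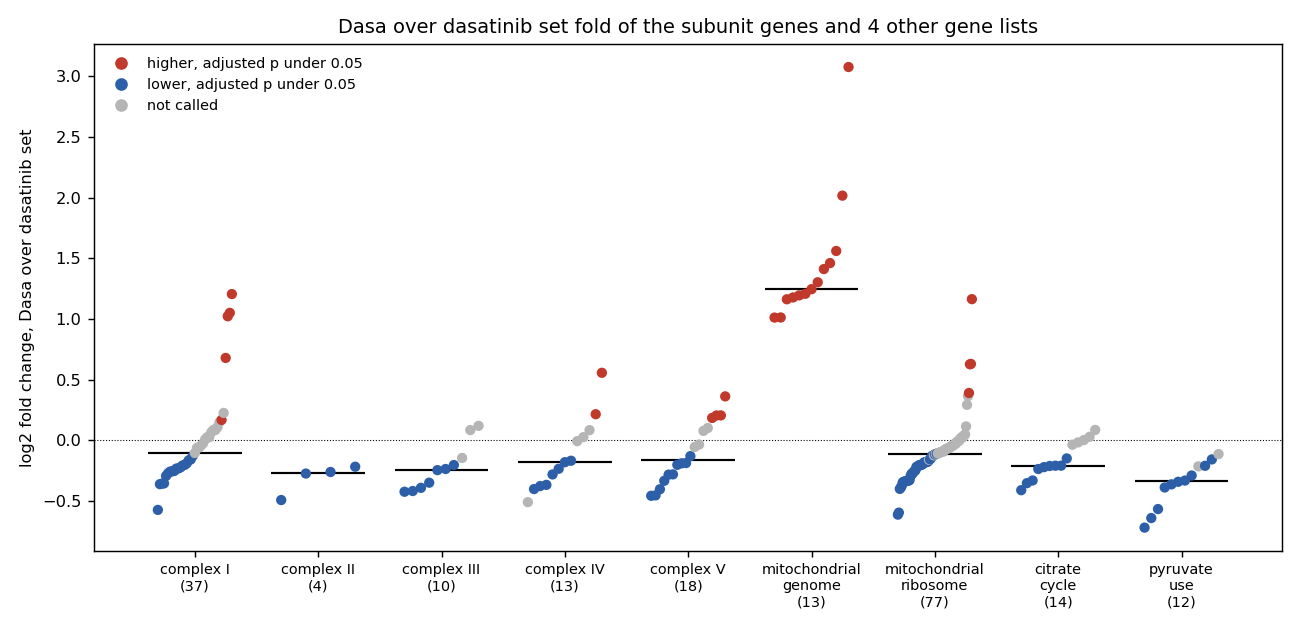
Log2 fold change of the Dasa over the dasatinib set (vertical axis) for the tested subunit genes by complex and for 4 other gene lists, with the number of genes in brackets; red and blue points were called higher or lower (edgeR adjusted p under 0.05) and black lines are medians. The 13 genes of the mitochondrial genome lie between 1.01 and 3.08, above the medians of all 5 complexes.

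Genes of the mitochondrial genome, which encode the partner subunits of the same complexes, were higher in the Dasa set in all 13 cases, with a median log2 fold of 1.25. For T348I over WT 9 of 13 were higher, with a median of 0.22. Of all genes tested, 29.7% were higher in the Dasa set and 20.7% in T348I. By set, all 13 folds were above 0 in the dasatinib set (0.17 to 0.70, median 0.30), and 7 of 13 in the Dasa set (-0.19 to 0.33, median 0.01). MT-ND4L had a log2 fold of 0.30 in T348I (edgeR adjusted p = 0.00206) and 1.46 between the sets, and MT-ND6 had 0.52 (adjusted p = 0.00285) and 3.08. In an alternative fit all genes named MT-, which are more than these 13, were left out before filtering and scaling. The median of the nuclear subunits between the sets then moved from -0.184 to -0.185.

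Summed over all 91 genes, subunit transcripts took 8242, 8946 and 8795 CPM in the WT dasatinib samples and 7752 CPM in the WT Dasa sample. In T348I samples they took 8276, 8504 and 8446 CPM in the dasatinib set, inside the WT range, and 7306 and 7144 CPM in the Dasa set, below the WT sample. The ratio of T348I to WT was 0.971 in the dasatinib set and 0.932 in the Dasa set. By complex it ran from 0.948 (complex II) to 0.978 (complex V) in the dasatinib set and from 0.895 (complex IV) to 0.960 (complex V) in the Dasa set. Complex II was the one whose summed level in the dasatinib set did not overlap between the groups, with 442 to 449 CPM in WT and 416 to 431 CPM in T348I.

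The T348I over WT fold itself differed between the sets for 7 subunit genes (8.54%), by edgeR's interaction test, and in all 7 it was lower in the Dasa set; over all genes 4.19% were called with a lower and 3.14% with a higher fold there. NDUFB2, a membrane-arm subunit of complex I, had a log2 fold of -0.13 in the dasatinib set and -0.47 in the Dasa set (adjusted p of the difference = 0.00812). NDUFB1 had -0.04 and -0.35 (adjusted p = 0.0173) and NDUFA2 had -0.09 and -0.46 (adjusted p = 0.0332). The others were ATP5ME, ATP5IF1, SDHD and COX6B1. Of the 82 genes, 48 had a fold below 0 in the dasatinib set and 60 in the Dasa set, and 41 in both, as the plot of folds within the sets shows. The test takes the lone WT Dasa sample to vary like the other samples. DESeq2 called 0 of these differences (2 higher and 10 lower at an unadjusted p under 0.05), and without T348I Dasa replicate 2 edgeR called 0 (1 higher and 12 lower at an unadjusted p under 0.05).

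**Figure D4:**
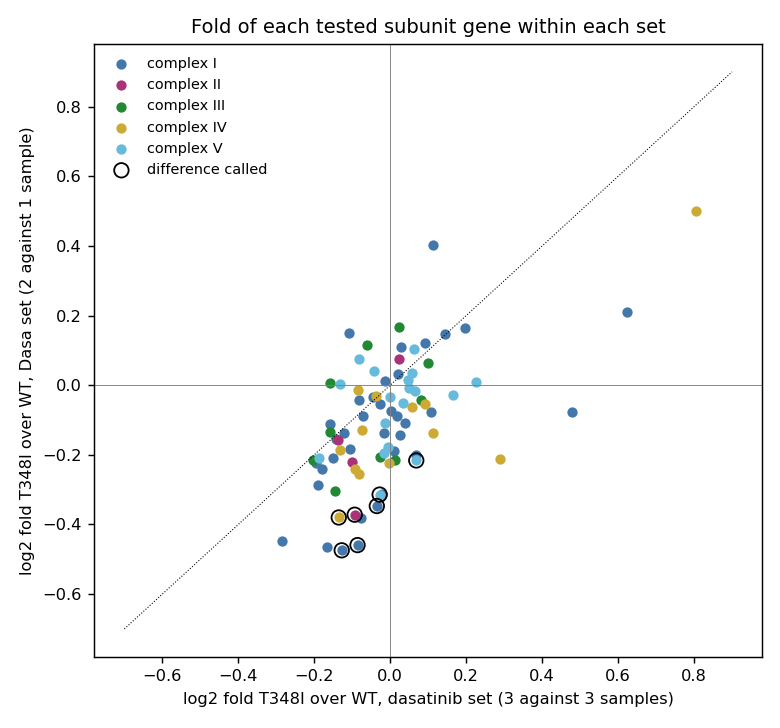
Log2 fold change of T348I over WT in the dasatinib set (horizontal axis, 3 against 3 samples) and in the Dasa set (vertical axis, 2 against 1 sample) for each tested subunit gene, coloured by complex; rings mark the 7 genes whose difference was called and the dotted line marks equal folds. All 7 rings lie below the dotted line.

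The genes that assemble the complexes and those of neighbouring pathways were counted in the same fits. Over all genes tested, 20.7% were higher and 21.8% lower in T348I by edgeR, and 17.6% and 17.1% by DESeq2. The counts of each list are to be read beside these shares. For T348I over WT, complex I assembly factors had 2 genes higher and 2 lower of 18, complex III factors 2 lower of 6 and complex IV factors 3 higher and 3 lower of 24 (1 and 2 by DESeq2). For complex II factors (4 genes, SDHAF3 0.11 and SDHAF4 -0.20), ATP synthase factors (5 genes, ATPAF1 -0.10 and TMEM70 -0.05) and cytochrome c genes (2 genes, HCCS 0.02 and CYCS near 0), edgeR and DESeq2 called 0, and 0 were under an unadjusted p of 0.05. Named members of these were COA1 (-0.19) and NDUFAF4 (0.30) for complex I, TTC19 (-0.33) and LYRM7 (-0.23) for complex III, and COA4 (0.20) and SURF1 (-0.25) for complex IV, all called. Coenzyme Q synthesis had 2 higher and 5 lower of 13 (2 and 3 by DESeq2), led by PDSS2 (-0.29) and COQ9 (-0.31).

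The pyruvate use list had 3 higher and 8 lower of 12 genes (over all genes tested, 20.7% and 21.8%), with a median log2 fold of -0.20. The list joins enzymes of opposite roles: 4 of the 8 lower genes were PDK1 (-0.26), PDK2 (-0.73), PDK3 (-0.16) and PDK4 (-0.25), kinases that inhibit pyruvate dehydrogenase, and the 3 higher were LDHA (0.36) and LDHB (0.14), lactate dehydrogenases, and PDHB (0.22), a pyruvate dehydrogenase subunit, all named after their values were seen. MPC1 and MPC2, which together form the mitochondrial pyruvate carrier, fell by 0.66 (edgeR adjusted p = 9.72e-07) and 0.68 (adjusted p = 3.21e-08). The citrate cycle had 7 lower of 14 (6 by DESeq2) and 0 higher by edgeR or DESeq2, also at an unadjusted p under 0.05, led by IDH2, a mitochondrial isocitrate dehydrogenase, which fell by 0.26 (edgeR adjusted p = 5.78e-05), and FH, fumarase, which fell by 0.21 (adjusted p = 0.000583). Among 12 regulators of mitochondrial biogenesis 3 were higher and 1 lower. PPARGC1A, the coactivator PGC-1 alpha, fell by 0.60 (edgeR adjusted p = 1.91e-05) and PPRC1, a related coactivator, was higher by 0.27 (adjusted p = 2.84e-05). In the dasatinib and the Dasa set the folds were -0.40 and -1.04 for PPARGC1A, and 0.23 and 0.34 for PPRC1. They were -0.52 and -1.02 for MPC1, -0.53 and -1.015 for MPC2, -0.25 and -0.27 for IDH2, and -0.22 and -0.18 for FH. The Dasa folds rest on 1 WT sample, and the counts of these lists without it were not computed.

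The mitochondrial ribosome list and a mixed list of mitochondrial import, membrane and chaperone genes had more higher than lower calls in T348I. Over all genes tested, 20.7% were higher and 21.8% lower by edgeR, and 17.6% and 17.1% by DESeq2. The called genes of the mixed list were TOMM40, PHB1, PHB2, VDAC1 and VDAC2, named after their values were seen, and its TIMM genes were not called. Of 77 ribosome genes 22 were higher (17 by DESeq2), led by MRPL52 (0.32) and MRPS10 (0.27), and 0 were lower by edgeR or DESeq2 (2 and 0 at an unadjusted p under 0.05). Of the 16 genes of the mixed list 5 were higher (3 by DESeq2), led by TOMM40 (0.18) and PHB2 (0.13). By either tool 0 were lower, also at an unadjusted p under 0.05. In the Dasa set both lists instead had more lower than higher calls, 38 against 4 and 12 against 1. The citrate cycle had 9 lower calls of 14 there and pyruvate use 10 of 12. Of all genes tested, 29.0% were lower and 29.7% higher in the Dasa set.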

How the data were processed

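PolyA RNA of 9 samples (TRIzol, then a Qiagen column) was sequenced from stranded KAPA libraries, per the labels' protocols. The authors deposited raw counts per gene; per the submitters' processing notes, STAR 2.5.1b, Trimmomatic 0.35 and CASAVA 1.8.2 were used, with build GRCh38. The release of the annotation is not given in the sources used here. Counts of column 4 (sense strand) were used. Opposite-strand reads were 5.48% to 5.91% of these, and rows that name no gene (22.2% to 29.8% of reads) were left out. Reads that fit several places or genes count for none. Symbols were given to 57437 of 58219 genes, and GENCODE 29 held 55008 with the same version; coordinates are printed for those.

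In R 4.3.3, edgeR 4.0.16 filtered genes by group (filterByExpr), scaled them by TMM and ran the quasi-likelihood F-test with set and group as terms, and a second model with their interaction; DESeq2 1.42.0 was an alternative. Standard errors come from the fold and F. Scripts were tested on simulated data. Genes were named by rule: up to 4 per complex with the smallest p for T348I over WT, 2 for the sets, core subunits, paralogues, the 3 smallest interaction p, and 2 per other list; a gene that the rule takes is not reported here. The genes, lists and rules were chosen with earlier results of these data known. The labels do not say whether replicates were separate cultures; the p-values then cover the spread among these 9 samples alone, and that spread may be technical. Pairs within a group and set differed by more than sampling noise.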

Additional observations from a re-analysis of the deposited data

Results flagged for a closer look

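In WT, the sample of the Dasa set stood apart from the 3 others by Dixon's test: its summed complex II level was 374.5 CPM (the others 442 to 449), UQCRC1 92.2 CPM (123 to 129), ATP5F1B 672 CPM (965 to 987), NDUFB4 69.3 CPM (85.6 to 87.2), COX7A2L 87.6 CPM (116 to 118) and NDUFV1 117.5 CPM (100.3 to 103). WT dasatinib replicate 3 stood apart for ATP5MC1, at 112 CPM (101 to 102), and T348I Dasa replicate 2 for NDUFB2, at 53.4 CPM (59.1 to 60.4). These are 8 of 86 groups of values. Chance flags about 1 in 20 groups of like samples, but the WT group pools both sets, so that rate is no reference here: 6 of the 8 restate the difference between the sets.

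The T348I over WT fold differed between the sets by edgeR's interaction test for 7 genes, with a log2 difference (Dasa minus dasatinib set) of -0.35 for NDUFB2, -0.31 for NDUFB1, -0.37 for NDUFA2, -0.28 for ATP5ME (edgeR adjusted p = 0.0347), -0.29 for ATP5IF1 (adjusted p = 0.0374), -0.28 for SDHD (adjusted p = 0.0382) and -0.24 for COX6B1 (adjusted p = 0.0483). Each rests on 1 WT and 2 T348I samples of the Dasa set.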

How the results depend on the processing

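The counts and the median between the sets kept their direction and stayed within 1.5 times, or within the spread between samples, under every alternative run. The median for T348I over WT stayed below 0. The allowed spread of 0.0463 was larger than this median of -0.0423, so that check could hardly fail for it. It ran from -0.0142 (without WT Dasa replicate 1) to -0.081 (without WT dasatinib replicate 1). For T348I over WT, no set term gave 0 higher and 2 lower genes (0% and 2.44%, against 8.44% and 7.63% of all genes). The dasatinib set alone gave 15 lower. With one sample left out at a time there were 3 to 6 higher (3.66% to 7.32%, against 18.3% to 20.4% of all genes). The lower calls then numbered 14 to 28 (17.1% to 34.1%, against 16.5% to 20.5%). The share of lower calls was 18.3% against 17.1% of all genes in the dasatinib set alone, and 17.1% against 16.5% without WT Dasa replicate 1. Differences between the sets numbered 0 with DESeq2, which called 1.97% of all genes with a lower and 1.87% with a higher fold. They numbered 0 to 9 with one sample left out. Of all genes, those fits called 3.31% to 4.25% with a lower and 2.14% to 3.09% with a higher fold. Without WT Dasa replicate 1 that model could not be fitted. With the replicate number within the set as a block there were 4 higher and 20 lower genes and a median of -0.046; samples with the same number did not deviate together (correlations of -0.105, -0.046 and -0.10), so the numbers do not pair the samples. With counts that ignore strand, NDUFA2 had a log2 fold of 0.055 between the sets in place of -0.23, and NDUFS7 was called higher (0.47, edgeR adjusted p = 0.0137) in place of lower (-0.17). The filter by the model design was chosen after seeing the data. With 10381142 to 15799059 gene reads, genes near 1 CPM, such as COX6B2, rest on few reads.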
